A study of Mus musculus with 10 samples.

Results

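The 10 genes described here belong to transforming growth factor beta (TGF-beta) signalling. They are the ligands Tgfb1, Tgfb2 and Tgfb3, the receptors Tgfbr1, Tgfbr2 and Tgfbr3, the latent binders Ltbp1 and Ltbp2, the induced matrix protein Tgfbi and the inhibitor Smad7. They were chosen by name from the 18194 genes that had a probe set annotated to that symbol alone, and not by a rule on their measured values. Earlier results of these data were known when they were chosen. Together they held 25 probe sets, up to 4 for a gene, and only Tgfb3 and Ltbp2 had 1. The probe set of highest mean over all arrays stands for each gene, and the others are given as a check. All 10 genes passed the filter on low values, which kept 14989 genes.

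Whole-lung RNA of ICR mice was measured on 10 Affymetrix arrays in a model of bronchopulmonary dysplasia, a chronic lung disease of preterm infants given oxygen. Newborn pups entered 80% oxygen or room air within 12 h of birth and stayed there to postnatal day 14 (P14) or day 29 (P29), with 3 hyperoxia and 2 room-air arrays at each age. All pups were of 1 strain without a stated mutation, and nursing dams were rotated between the exposures, so the groups differed by label in oxygen and age only. The labels do not say whether an array holds 1 animal, so p-values cover no more than the differences among arrays of a group, and those may be technical. Pups were exposed from birth until the lung was taken, so every comparison concerns continuous exposure and none concerns recovery.

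Some features of the arrays moved with the groups. The actin control's 3' minus 5' difference, a gauge of RNA breakdown and of short copies, was 0.32 to 0.74 on the 4 room-air arrays and 1.33 to 2.21 on the 6 hyperoxia arrays. These ranges did not overlap, so the actin difference and oxygen cannot be fully told apart. A term for it in the fit rests on differences within groups of 3 and 2 arrays. All P14 arrays showed the male pattern of sex-linked transcripts and both P29 room-air arrays the female one. The P29 hyperoxia arrays showed 1 male pattern, 1 female pattern and, in replicate 3, both Xist (11.94) and Y-linked transcripts (mean 7.71). Summed linear levels of 8 fibroblast and myofibroblast markers were 41397 to 42755 in P14 room air, 35560 to 35870 in P14 hyperoxia, 19745 to 19892 in P29 room air and 27817 to 29224 in P29 hyperoxia. Surfactant protein C, Sftpc, lay between 14.66 and 14.89 on the log2 scale on every array, as a lung label requires. In whole lung, fewer cells of a type and less RNA per cell cannot be told apart.

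TGF-beta is secreted in a latent form, held by its own propeptide and tied through latent binding proteins to fibrillin and elastic fibres until integrins, proteases or other activators release it. The free dimer joins the type II receptor Tgfbr2 to the type I receptor Tgfbr1, often after presentation by the type III co-receptor Tgfbr3, and Tgfbr1 phosphorylates Smad2 and Smad3. Smad7, itself induced by the pathway, blocks the type I receptor and brings it to degradation. In the developing lung TGF-beta acts on branching, septation of alveoli and deposition of elastin and collagen by myofibroblasts.

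Promoters are printed for 4 genes whose patterns the results turn on: Tgfb2 and Ltbp2, which were low on both P29 room-air arrays, Tgfbi, which had the widest range, and Tgfb1, which fell at both ages. RefSeq promoter entries of build GRCm38.p6 were found for 7 of the 10 genes, with 9 entries in all, and Tgfb3, Tgfbr3 and Smad7 had none. Each line gives the 250 bases before the annotated start of transcription, 5' to 3' on the gene's strand. They lie at chr1:186705990-186706239 (minus strand), chr12:84876492-84876741 (minus), chr13:56609336-56609585 (plus) and chr7:25686752-25687001 (plus). Capitals mark matches on either strand to CAGAC (a Smad box), TGAGTCA (an AP-1 site), TGACGTCA (a cAMP response element), TATAAA (the TATA box), GGGCGG (a GC box) or CCAAT, a box of its own name.
Tgfb2: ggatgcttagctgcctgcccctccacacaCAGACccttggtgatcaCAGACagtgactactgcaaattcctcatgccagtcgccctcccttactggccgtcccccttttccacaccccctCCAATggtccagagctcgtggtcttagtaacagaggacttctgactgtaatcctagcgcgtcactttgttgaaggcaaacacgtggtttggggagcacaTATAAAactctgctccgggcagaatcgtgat
Ltbp2: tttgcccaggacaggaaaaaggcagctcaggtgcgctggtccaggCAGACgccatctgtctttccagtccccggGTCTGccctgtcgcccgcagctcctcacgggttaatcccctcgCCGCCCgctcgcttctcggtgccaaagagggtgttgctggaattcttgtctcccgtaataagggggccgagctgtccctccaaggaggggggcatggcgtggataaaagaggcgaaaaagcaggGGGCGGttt
Tgfbi: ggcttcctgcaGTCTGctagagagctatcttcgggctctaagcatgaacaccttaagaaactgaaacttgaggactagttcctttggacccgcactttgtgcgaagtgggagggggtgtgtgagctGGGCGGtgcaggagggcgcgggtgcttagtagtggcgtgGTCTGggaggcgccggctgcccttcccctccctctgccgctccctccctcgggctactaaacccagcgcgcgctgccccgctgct
Tgfb1: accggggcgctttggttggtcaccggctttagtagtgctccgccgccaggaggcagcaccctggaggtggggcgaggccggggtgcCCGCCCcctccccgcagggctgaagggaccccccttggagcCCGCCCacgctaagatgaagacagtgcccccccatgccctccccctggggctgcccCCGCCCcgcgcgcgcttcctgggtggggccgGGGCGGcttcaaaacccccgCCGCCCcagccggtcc
The promoters of Tgfb2, Ltbp2 and Tgfbi each held 2 Smad boxes, and that of Tgfb1 held 0. Among 32851 mouse promoter entries of this length, 42.2% held at least 1 Smad box, so a match is common. Tgfb2 also held a TATA box 31 bases before the start and a CCAAT box 130 bases before it, letters found in 12.4% and 33.8% of all entries. The Tgfb1 stretch had 5 GC boxes, a match found in 32.7% of entries, and a GC content of 75.2% against a median of 52.4%. No match in these stretches overlapped another, and a match is a description of the letters, not of a site in use.

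**Figure D1:**
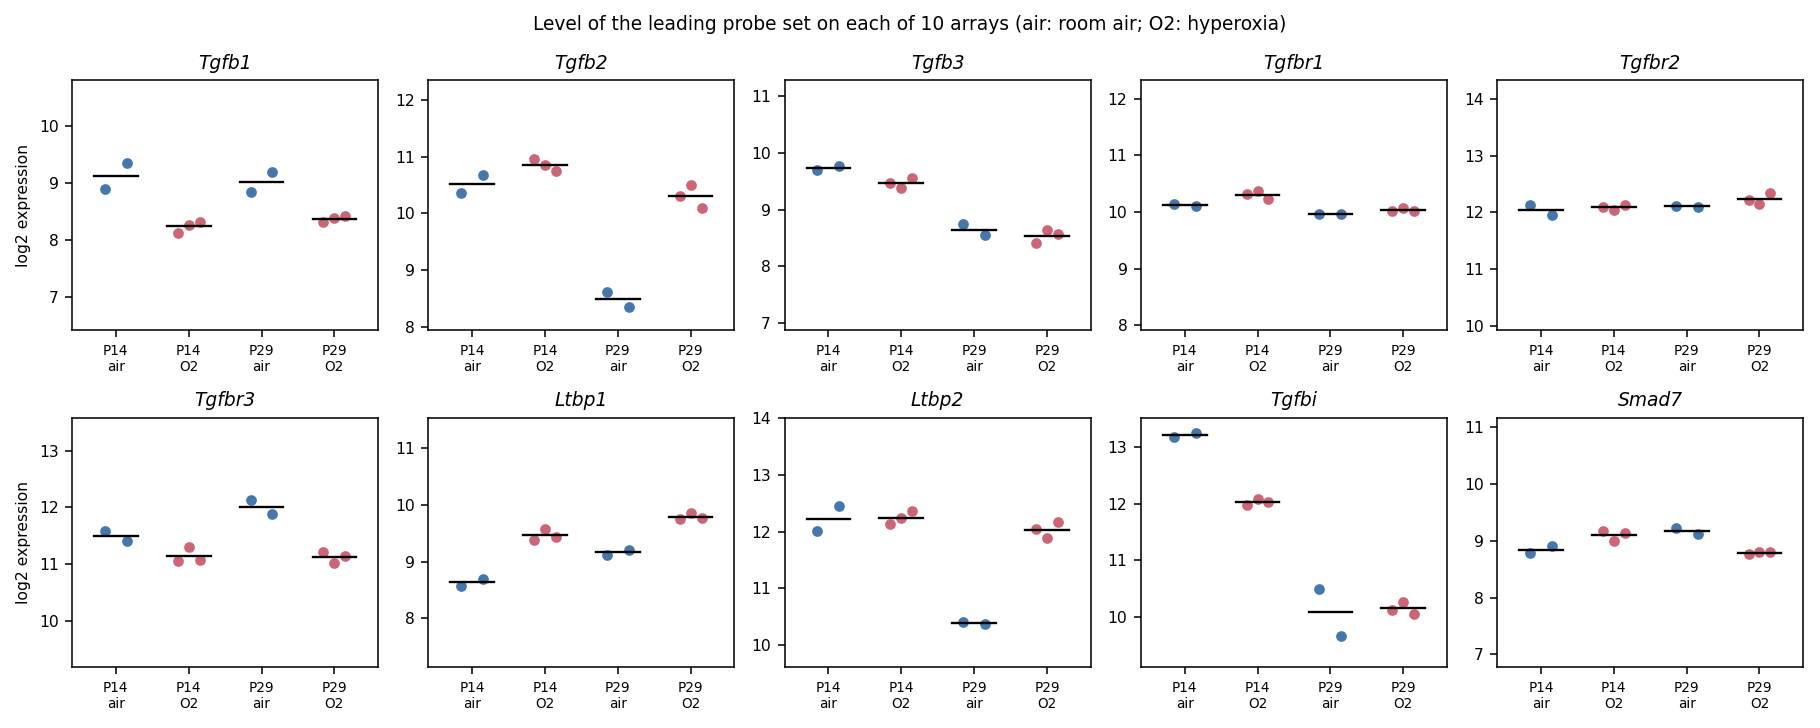
Each panel plots 1 gene by its leading probe set, with log2 expression on the vertical axis, 1 point per array and a bar at the group mean; every panel spans the same number of log2 units. Tgfb2 and Ltbp2 drop on the P29 room-air arrays, Tgfbi steps down with age, Tgfb1 is lower on all 6 hyperoxia arrays than on all 4 room-air arrays, and Tgfbr1 and Tgfbr2 stay nearly level.

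The first question was what hyperoxia had changed in these genes at P14. Of the 10 genes, 2 rose (Ltbp1 and Smad7) and 4 fell (Tgfb1, Tgfb3, Tgfbr3 and Tgfbi). The test was limma with adjustment over all genes tested, of which 32.3% were higher and 22.8% lower at P14. The median log2 difference was 0.03 over the 10 genes and 0.04 over all genes. At P29, 3 genes rose (Tgfb2, Ltbp1 and Ltbp2) and 3 fell (Tgfb1, Tgfbr3 and Smad7), beside 34.2% and 25.5% of all genes. Their median was 0.07, against 0.04 over all genes. With the actin difference as a term in the fit, calls numbered 2 of 10 at P14 (Ltbp1 and Tgfb1) and 3 of 10 at P29 (Tgfb1, Tgfb2 and Ltbp2), while calls over all genes came to 809 higher and 578 lower at P14 and 1628 and 1277 at P29.

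The 3 ligands went different ways. Tgfb2, the isoform whose loss in mice gives broad developmental defects, had the largest P29 change of the 10 genes. On the log2 scale its levels were 8.61 and 8.36 in P29 room air and 10.30, 10.50 and 10.10 in P29 hyperoxia. Every hyperoxia array lay above both room-air arrays. The rise was 1.82 ± 0.13 (SE), or 3.52-fold (adjusted p = 1.62e-06), and 1.36% of all genes had a larger difference in either direction. It passed the test under every setting tried on that probe set, with adjusted p from 7.14e-08 to 0.00409. The 3 other Tgfb2 probe sets rose as well, by 1.50 to 1.93.

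At P14 the Tgfb2 levels were 10.36 and 10.68 in room air and 10.96, 10.86 and 10.76 in hyperoxia. The groups did not overlap, but the difference of 0.34 ± 0.13 stood just outside the threshold (adjusted p = 0.0502). Of the other probe sets 2 rose, by 0.41 (adjusted p = 0.0243) and 0.61 (adjusted p = 0.00855), and the third gave 0.33 (adjusted p = 0.0801). Over the alternatives the adjusted p ran from 0.00985 to 0.386. The hyperoxia effect was larger at P29 than at P14 by 1.47 ± 0.19 (adjusted p = 0.000347).

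Tgfb1, the isoform most studied in fibrosis and immune control, was lower in hyperoxia at both ages. In P14 room air it stood at 8.89 and 9.36, and in P14 hyperoxia at 8.13, 8.25 and 8.32. The P29 levels were 8.84 and 9.20 in room air and 8.31, 8.38 and 8.42 in hyperoxia. All 4 room-air arrays were above all 6 hyperoxia arrays, and the room-air pairs were spread more widely than the hyperoxia arrays. The fall was by 0.89 ± 0.14 (SE) at P14 (adjusted p = 0.000354) and by 0.65 ± 0.14 at P29 (adjusted p = 0.00224), or 1.85-fold and 1.57-fold. Every setting tried on that probe set kept both calls, with adjusted p up to 0.0339 at P14 and 0.0341 at P29. The dimmer second probe set gave -0.36 at P14 (adjusted p = 0.0455) and -0.29 at P29 (adjusted p = 0.0898). Summed linear levels of neutrophil markers moved the same way. At P14 they were 1121 to 1283 in hyperoxia and 4538 to 4653 in room air, and at P29 they were 700 to 716 and 5086 to 7690. T and natural killer cell markers at P14 summed to 512 to 516 in room air and 308 to 333 in hyperoxia. Their P29 sums were 1382 to 1398 in room air and 390 to 435 in hyperoxia. The summed level of platelet markers did not fall with them. Of the 5 platelet markers 2 rose and 2 fell at P14, and 2 rose and 3 fell at P29. Their sums at P14 were 1286 to 1467 in room air and 1332 to 1464 in hyperoxia, and at P29 1112 to 1312 and 1347 to 1391. Macrophage marker sums at P14 were 3251 to 3632 in room air and 4072 to 4412 in hyperoxia. At P29 those sums overlapped, at 6067 to 6471 and 5463 to 6121. Of the 7 macrophage markers 2 rose and 3 fell at P14, while 0 rose and 4 fell at P29 (median -0.76). Among all genes 32.3% rose and 22.8% fell at P14, and 34.2% and 25.5% at P29. The part of all these markers in the Tgfb1 result was not tested.

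Tgfb3, an isoform needed for palate fusion and lung maturation in mice, followed age more than oxygen. Its P14 levels were 9.69 and 9.78 in room air against 9.47, 9.38 and 9.56 in hyperoxia, a fall by 0.26 ± 0.10 (SE, adjusted p = 0.0418). The P29 levels were 8.75 and 8.54 in room air and 8.41, 8.65 and 8.57 in hyperoxia, and there the groups overlapped (-0.11 ± 0.10, adjusted p = 0.369). The P14 call was lost in several settings, among them without either P14 room-air array, P14 hyperoxia replicate 1 or 2 or P29 hyperoxia replicate 3 (-0.22 to -0.30, adjusted p = 0.0543 to 0.169). At P29 the gene passed the test after quantile normalization, at -0.29 (adjusted p = 0.0230).

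The latent binders Ltbp1 and Ltbp2 were both higher at P29 in hyperoxia. Ltbp1, which binds the propeptide and anchors latent TGF-beta in the matrix, was at 8.57 and 8.70 in P14 room air and 9.38, 9.58 and 9.44 in P14 hyperoxia. At P29 it was at 9.12 and 9.20 in room air and 9.75, 9.85 and 9.76 in hyperoxia. All 4 groups were apart, in the order P29 hyperoxia, P14 hyperoxia, P29 room air and P14 room air. The rises were 0.83 ± 0.09 (SE) at P14 (adjusted p = 2.85e-05) and 0.63 ± 0.09 at P29 (adjusted p = 0.000114). With the actin term the P29 value was 0.56 (adjusted p = 0.0617). The P14 call held under that term over genes, but not over all probe sets (0.76, adjusted p = 0.0698). The other 2 Ltbp1 probe sets, both dim at 4.90 to 5.74, gave 0.20 and 0.27 at P14 and 0.24 and 0.04 at P29, none of which passed the test.

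Ltbp2 belongs to the same family but does not bind latent TGF-beta, and its product sits on elastic microfibrils. Its levels at P14 were 12.00 and 12.46 in room air and 12.13, 12.24 and 12.36 in hyperoxia, which overlapped (0.02 ± 0.13, SE, adjusted p = 0.925). In P29 room air it was at 10.41 and 10.38, and in P29 hyperoxia at 12.04, 11.90 and 12.17. The hyperoxia arrays thus lay near the P14 level, and the room-air arrays lay well under it. The P29 rise was 1.64 ± 0.13, or 3.12-fold (adjusted p = 2.67e-06), and stayed past the threshold under every setting tried, with adjusted p up to 0.0173. The P29 effect exceeded the P14 effect by 1.62 ± 0.19 (adjusted p = 0.000164). Fibroblast and myofibroblast markers moved along with Ltbp2 and Tgfb2 at P29, where 5 of 8 rose and 1 (Pdgfra, at -0.65) fell, while at P14 0 rose and 5 fell. Meox2 rose by 1.35 and Dpt by 1.17 at P29, and the part of these markers in the Ltbp2 and Tgfb2 results was not tested. Among all genes 34.2% rose and 25.5% fell at P29, and 32.3% and 22.8% at P14.

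**Figure D2:**
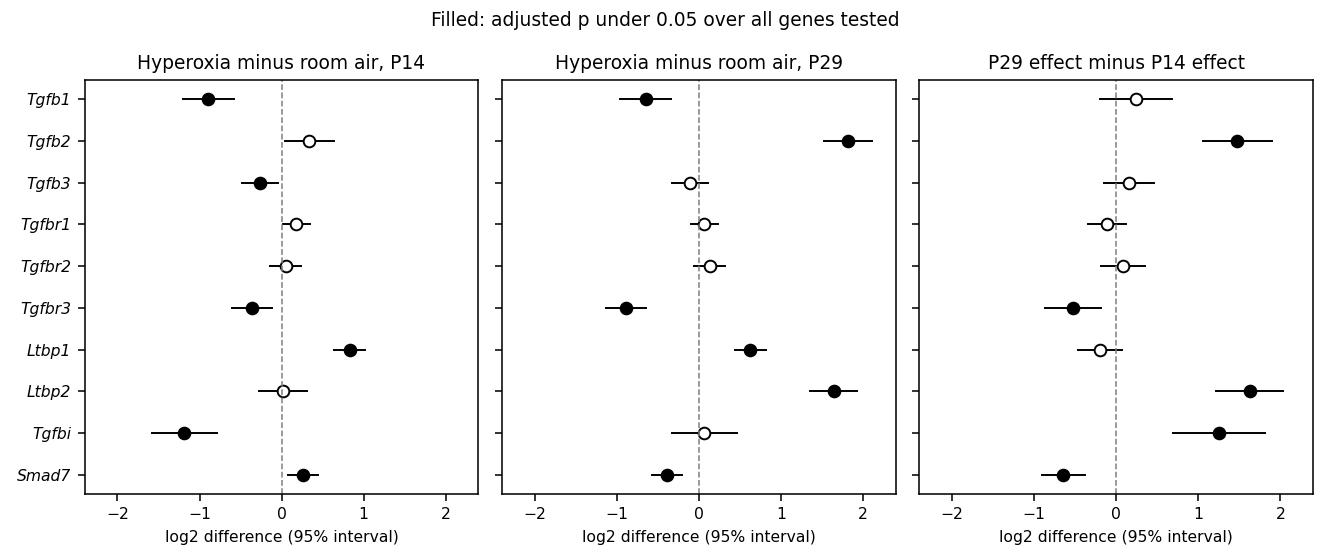
Points are the log2 difference of each gene's leading probe set with its 95% interval, hyperoxia minus room air at P14 (left) and P29 (middle) and the P29 effect minus the P14 effect (right); filled points passed the test at an adjusted p under 0.05. Tgfb2 and Ltbp2 stand far to the right at P29 but not at P14, and Tgfb1 and Tgfbr3 lie left of 0 at both ages.

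Among the receptors the signalling pair and the co-receptor differed. The leading Tgfbr1 probe set, for the type I kinase, read 10.15 and 10.11 in P14 room air, 10.33, 10.37 and 10.23 in P14 hyperoxia, 9.97 and 9.96 in P29 room air and 10.01, 10.07 and 10.01 in P29 hyperoxia. The differences of 0.18 ± 0.07 (SE) at P14 (adjusted p = 0.0619) and 0.07 ± 0.07 at P29 (adjusted p = 0.465) did not pass the test. Tgfbr2, the type II kinase that binds ligand first, read 12.13 and 11.95 in P14 room air, 12.10, 12.03 and 12.14 in P14 hyperoxia, 12.11 and 12.09 in P29 room air and 12.22, 12.15 and 12.33 in P29 hyperoxia. Its differences were 0.05, with a 95% interval of -0.14 to 0.24, and 0.13, with an interval of -0.06 to 0.32. Both intervals of Tgfbr2 include 0, and neither reaches a change of 0.5 in either direction.

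A dimmer probe set of Tgfbr2 told otherwise. It was at 8.94 and 8.16 in P14 room air, 7.23, 7.13 and 6.42 in P14 hyperoxia, 8.71 and 8.40 in P29 room air and 6.93, 7.14 and 6.94 in P29 hyperoxia. The probe set fell by 1.62 at P14 and fell by 1.55 at P29 (limma over all 34958 probe sets with 1 symbol, adjusted p = 0.000491 and 0.000499). A direction for Tgfbr2 therefore depends on the probe set read. The 2 dimmer Tgfbr1 probe sets lay at 5.10 to 5.88 and 4.64 to 5.89 in room air, and all 6 hyperoxia arrays were under the filter's floor of 5, at 4.17 to 4.59 and 3.42 to 4.17. No size of change is read from them. The actin term was added as an alternative once the data had been seen, and under it the Tgfbr2 probe set gave -0.27 and -0.29 (adjusted p = 0.680 and 0.600). The third Tgfbr2 probe set lay under the floor on every array, at 2.94 to 3.42.

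Tgfbr3, or betaglycan, which presents TGF-beta 2 in particular to the signalling receptors, was lower in hyperoxia. It was at 11.59 and 11.41 in P14 room air and 11.06, 11.30 and 11.07 in P14 hyperoxia. In P29 room air it was at 12.13 and 11.88, and in P29 hyperoxia at 11.21, 11.01 and 11.14. The room-air arrays were above the hyperoxia arrays at each age, and the 2 hyperoxia groups overlapped. The fall was by 0.36 ± 0.11 (SE) at P14 (adjusted p = 0.0181) and by 0.89 ± 0.11 at P29 (adjusted p = 5.68e-05), and the P29 effect was the lower by 0.53 ± 0.16 (adjusted p = 0.0314). Leaving out P14 room air replicate 1 or P14 hyperoxia replicate 1 or 3 ended the P14 call (-0.27 to -0.32, adjusted p = 0.0551 to 0.147). A second probe set, at 7.27 to 7.66 in room air and 5.72 to 6.11 in hyperoxia, fell by 1.40 at P14 and by 1.68 at P29 and kept both calls with the actin term (-1.22, adjusted p = 0.0424, and -1.51, adjusted p = 0.00881). On the leading probe set the actin term gave -0.12 at P14 (adjusted p = 0.777) and -0.66 at P29 (adjusted p = 0.0724). The difference between the ages was not called on the second probe set (-0.28, adjusted p = 0.385). Summed endothelial markers overlapped at P14, at 19179 to 20018 in room air and 19026 to 20552 in hyperoxia, where 2 of 8 rose and 2 fell. At P29 the sums were 25036 to 27070 and 17293 to 18885, with 0 rising and 4 falling, and their part in the Tgfbr3 result was not tested. Among all genes 32.3% rose and 22.8% fell at P14, and 34.2% and 25.5% at P29.

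**Figure D3:**
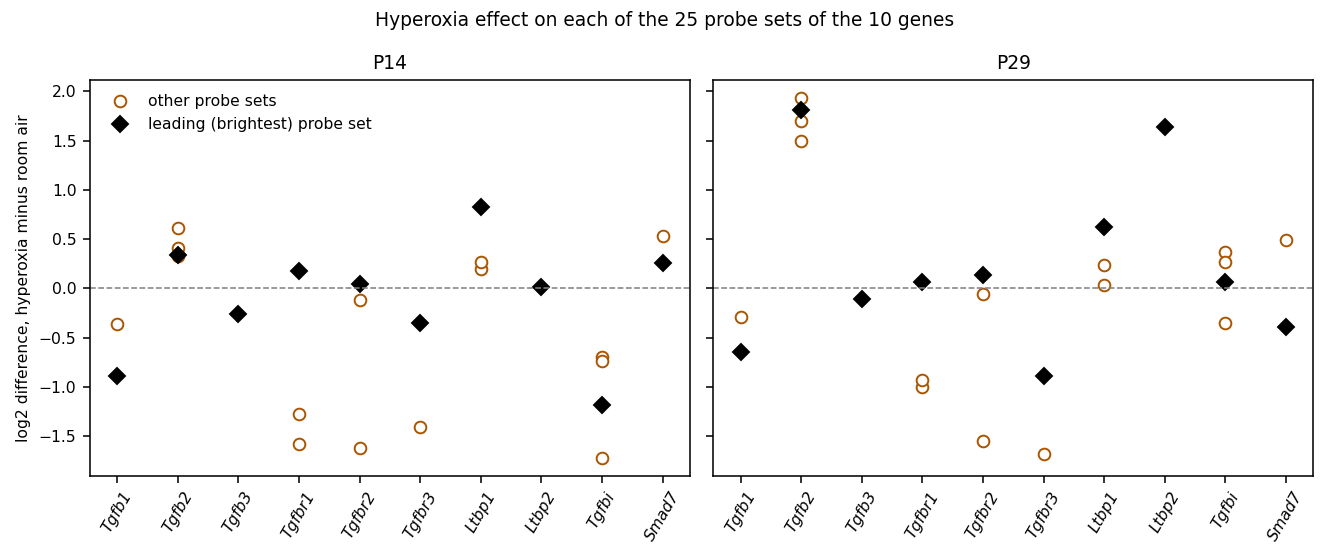
The log2 difference of hyperoxia minus room air is plotted for all 25 probe sets at P14 (left) and P29 (right), with a filled diamond for the leading probe set of a gene and open circles for the others. The 4 Tgfb2 probe sets lie together, whereas Tgfbr1, Tgfbr2 and, at P29, Smad7 have probe sets on both sides of 0; the lower ones of Tgfbr1 were under the filter's floor on every hyperoxia array.

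Smad7, the feedback inhibitor, had leading-probe-set changes of opposite sign at the 2 ages. It was at 8.78 and 8.91 in P14 room air and 9.18, 8.99 and 9.15 in P14 hyperoxia, a rise of 0.26 ± 0.08 (SE, adjusted p = 0.0220). In P29 room air it was at 9.22 and 9.13 and in P29 hyperoxia at 8.76, 8.80 and 8.80, and it fell by 0.39 ± 0.08 (adjusted p = 0.00224). The groups did not overlap at either age, and the effects differed by -0.65 ± 0.12 (adjusted p = 0.00284). The second Smad7 probe set rose at both ages, by 0.53 at P14 (adjusted p = 0.0134) and by 0.49 at P29 (adjusted p = 0.0170), so the P29 direction depends on the probe set. The P14 call of the leading probe set did not hold without P14 room air replicate 1 or P14 hyperoxia replicate 1 or 3 (0.20 to 0.24, adjusted p = 0.0583 to 0.146). The P14 rise was 0.08 after quantile normalization (adjusted p = 0.398), and with the actin term neither age was called, at 0.21 (SE 0.19, adjusted p = 0.490) and -0.43 (SE 0.18, adjusted p = 0.118), with wider errors.

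Tgfbi, a secreted collagen- and integrin-binding protein named for its induction by TGF-beta, fell at P14. It was at 13.18 and 13.24 in P14 room air and 11.97, 12.08 and 12.03 in P14 hyperoxia. The groups lay far apart, with little spread within either. The fall was by 1.18 ± 0.18 (SE), or 2.27-fold (adjusted p = 0.000291), and the 3 other probe sets fell by 0.70 to 1.72. Under the actin term the value was -1.01 with a wider error (SE 0.42, adjusted p = 0.146). At P29 the room-air arrays read 10.50 and 9.67 and the hyperoxia arrays 10.13, 10.27 and 10.06, all between the pair (0.07 ± 0.18, adjusted p = 0.767). That P29 value turns on 1 room-air array. It was 0.48 without replicate 1 (adjusted p = 0.00559) and -0.35 without replicate 2 (adjusted p = 0.0246). The effects at the 2 ages differed by 1.25 ± 0.26 (adjusted p = 0.00520), and by 0.84 to 1.66 when each array was left out in turn. Of 7 markers of macrophages, a cell type in which Tgfbi is abundant, 2 rose at P14 (Mrc1 by 0.63 and Csf1r by 0.51) and 3 fell (Cd68 by 1.07, Marco by 1.02 and Siglecf by 0.44), with a median of -0.28. Their summed linear level, which the brighter markers weigh most in, was 3251 to 3632 in P14 room air and 4072 to 4412 in P14 hyperoxia. The part of these markers in the Tgfbi result was not tested. Among all genes 32.3% rose and 22.8% fell at P14.

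Whether the hyperoxia effect changed with age was tested for every gene as a difference of effects. The signed difference, P29 minus P14, was above 0 for 3 of the 10 genes (Tgfb2, Ltbp2 and Tgfbi) and below 0 for 2 (Tgfbr3 and Smad7), beside 11.0% and 11.6% of all genes. For Tgfb2 and Ltbp2 this was a larger rise at P29, and for Tgfbi a fall at P14 that was not called at P29. Of the other 5, Ltbp1 had a difference of -0.20 with a 95% interval of -0.47 to 0.07, and Tgfb1 0.24 with an interval of -0.19 to 0.68. Tgfb3, Tgfbr1 and Tgfbr2 gave 0.16, -0.11 and 0.08. The 5 called differences were also called with the actin term. That of Tgfbr3 was lost without P14 room air replicate 2, P14 hyperoxia replicate 2, P29 room air replicate 1 or P29 hyperoxia replicate 2 or 3 (-0.41 to -0.54, adjusted p = 0.0532 to 0.130), and after scaling to the 75th percentile (adjusted p = 0.0526). With the mean of all probe sets of a gene, 3 were called, and Smad7 (adjusted p = 0.129) and Tgfbr3 (adjusted p = 0.0558) were not.

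The same arrays show how the genes moved from P14 to P29. In room air 3 genes were higher at P29 (Ltbp1, Tgfbr3 and Smad7) and 4 lower, beside 22.2% and 19.1% of all genes. The largest fall was that of Tgfbi, by 3.12 ± 0.20 (SE) or 8.72-fold (adjusted p = 5.46e-07). Tgfb2 fell by 2.03 ± 0.15 (4.09-fold), Ltbp2 by 1.83 ± 0.14 (3.57-fold) and Tgfb3 by 1.09 ± 0.11. The rises were smaller, at 0.52 ± 0.09 for Ltbp1, 0.51 ± 0.12 for Tgfbr3 and 0.33 ± 0.09 for Smad7. Second probe sets gave 0.19 for Tgfbr3 (adjusted p = 0.363) and -0.11 for Smad7 (adjusted p = 0.683). Of the other Ltbp1 probe sets 1 gave 0.00 and 1 gave 0.55. The Tgfbr3 call was lost without P14 room air replicate 2 or P29 room air replicate 1 (adjusted p = 0.0504 and 0.0576). That of Smad7 was lost without replicate 1 of either room-air group (adjusted p = 0.0799 and 0.0885). In room air age and the sex pattern of the arrays cannot be told apart, since P14 arrays were male and P29 arrays female in their transcripts.

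In hyperoxia 1 gene was higher at P29 (Ltbp1) and 5 were lower (Tgfbi, Tgfb3, Tgfb2, Smad7 and Tgfbr1), beside 15.4% and 11.7% of all genes. Tgfbi fell by 1.88 ± 0.16 (SE) and Tgfb3 by 0.93 ± 0.09. Tgfb2 fell by 0.56 ± 0.12 (adjusted p = 0.00572), and Ltbp2 gave -0.21 ± 0.12 (adjusted p = 0.219). The Ltbp1 call was lost with a term for the Y-linked level (0.28, adjusted p = 0.0636). That of Tgfbr1 was lost without P14 hyperoxia replicate 2 (-0.24, adjusted p = 0.0521). The second Smad7 probe set gave -0.15 (adjusted p = 0.525). With the mean of all probe sets neither Smad7 (adjusted p = 0.0891) nor Tgfbr1 (adjusted p = 0.568) was called. These age effects use the arrays of the hyperoxia comparisons and are no separate evidence for them. Between P14 and P29, then, the room-air lungs lost most of their Tgfb2 and Ltbp2 signal, and the hyperoxia lungs held P29 levels that overlapped those of P14 room air. For Tgfb3 the age falls in room air and in hyperoxia differed by 0.16 ± 0.14 (adjusted p = 0.474).

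Other genes of the pathway were read from 4 lists. Of 23 genes of the latent complex, its activation and release, 20 were tested, and Fbn1 and Lrrc32 had no probe set of 1 symbol. At P14 7 of these rose and 9 fell (median -0.22), beside 32.3% and 22.8% of all genes, and at P29 11 rose and 5 fell (median 0.62), beside 34.2% and 25.5%. The P14 share that rose is near that of all genes. Ltbp4, a latent binder needed for elastic fibre assembly, fell by 1.49 ± 0.08 (SE) at P29 (adjusted p = 2.07e-07), while the matrix protease Mmp2 rose by 1.14 ± 0.08 (adjusted p = 1.11e-06). Fmod, or fibromodulin, a collagen-binding proteoglycan that can hold TGF-beta, rose by 1.08 at P14 and by 1.99 at P29. Its 5 other probe sets gave -0.19 to 0.41 at P14 and 0.60 to 1.05 at P29. At P14 Emilin1, an elastic fibre glycoprotein known in mice to restrain processing of the TGF-beta precursor, fell by 0.96, and Nrros, which holds latent TGF-beta on myeloid cells, fell by 0.85.

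The test of the difference between ages called 10 of the 20 genes of this list higher at P29 and 2 lower, beside 11.0% and 11.6% of all genes, with a median of 0.50 against -0.00. Mmp14, the membrane protease that activates Mmp2, differed by 1.43 ± 0.15 (adjusted p = 8.91e-05) and Mmp2 by 1.30 ± 0.11, whereas Ltbp4 differed by -1.20 ± 0.11. Of the 20, 2 rose and 3 fell at P14 under the actin term, and 8 rose and 2 fell at P29. The same term left 809 higher and 578 lower of all 14989 genes at P14, and 1628 and 1277 at P29.

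Of 9 co-receptors and related receptors tested, 6 rose and 1 fell at P14 (median 0.43), and 4 rose and 4 fell at P29 (median 0.09), beside the same shares of all genes (32.3% and 22.8%, then 34.2% and 25.5%). Cd109, a membrane-anchored inhibitor of TGF-beta signalling, rose by 1.03 ± 0.08 (SE) at P14 and by 0.86 ± 0.08 at P29, and its second probe set rose at both ages. Acvrl1, or ALK1, the endothelial type I receptor, fell by 1.07 ± 0.09 and by 1.78 ± 0.09 on its leading probe set, but a second gave 0.33 and 0.01. Acvr1 rose by 0.91 at P29 on its leading probe set, and 2 others gave -0.09 and -0.38. At P14 Tgfbrap1, a receptor-associated protein, rose by 0.49, with 0.23 and -0.31 on its others. For 4 of the 9 genes the effect was lower at P29 than at P14 and for 0 it was higher, beside 11.6% and 11.0% of all genes. Among these were Acvr1b (-0.63), Acvrl1 (-0.71) and the endothelial co-receptor Eng (-0.78), but the second Acvr1b probe set fell at both ages, by 0.45 and 0.56. In the fit with the actin term 1 rose and 1 fell at P14, and 2 rose and 3 fell at P29. That fit called 809 of all 14989 genes higher and 578 lower at P14, and 1628 and 1277 at P29.

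Among 17 Smads, inhibitors and nuclear partners, 4 rose and 2 fell at P14 (median 0.02), and 5 rose and 7 fell at P29 (median 0.05), beside 32.3% and 22.8%, then 34.2% and 25.5%, of all genes. Pmepa1, a feedback inhibitor induced by TGF-beta, rose by 0.76 ± 0.15 (SE) at P14 and by 1.84 ± 0.15 at P29. Of its other probe sets both rose at P29, by 0.79 and 1.21, and at P14 they gave -0.21 (adjusted p = 0.250) and 0.66 (adjusted p = 0.00883). Skil, a repressor of Smad-driven transcription, rose by 0.59 and 0.94, though its second probe set gave -0.13 and 0.03. Tgif1, a Smad co-repressor, fell by 0.83 at P14, and the inhibitory Smad6 fell by 0.65 at P29. The effect on Pmepa1 was larger at P29 by 1.08 ± 0.21 (adjusted p = 0.00362), and those on Smad6 (-0.74) and the ubiquitin ligase Smurf1 (-0.66) were lower, though the second Smurf1 probe set gave -0.55 at P14 and -0.67 at P29. Fitting the actin term left 0 higher and 1 lower at P14 and 4 and 1 at P29. Among all 14989 genes that term left 809 higher and 578 lower at P14, and 1628 and 1277 at P29. Pmepa1 (adjusted p = 0.239), Skil (adjusted p = 0.212) and Tgif1 (adjusted p = 0.141) were then not called at P14, nor Smad6 at P29 (adjusted p = 0.0523). The P14 counts of this list turn with the scaling, to 2 higher and 7 lower after quantile normalization and 2 and 8 after scaling to the 75th percentile.

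Of 26 tested genes that TGF-beta commonly induces, 10 rose and 3 fell at P14 (median 0.20), and 18 rose and 1 fell at P29 (median 0.40), against medians of 0.04 over all genes at both ages. Among all genes 32.3% rose and 22.8% fell at P14, and 34.2% and 25.5% at P29. At P14 Ccn2, or connective tissue growth factor, rose by 1.47 ± 0.14 (SE), the transcription factor Bhlhe40 by 1.29 ± 0.11 and Timp1, an inhibitor of matrix proteases, by 1.21 ± 0.12. At P29 Timp1 rose by 1.94 ± 0.12 and tenascin C, Tnc, by 3.38 ± 0.25. The 1 gene of the list that fell at P29 was Igfbp3, a binder of insulin-like growth factors, at -3.27 ± 0.16, and its second probe set gave -3.34. In the test between ages 8 genes were higher at P29 and 5 lower, beside 11.0% and 11.6% of all genes. Tnc differed by 4.04 ± 0.36, Snai2, a transcription factor of mesenchymal cells, by 1.47 ± 0.13, and Igfbp3 by -3.86 ± 0.22. Scaling to the 75th percentile gave 13 higher and 6 lower at P29. When the actin term was fitted, 5 rose and 0 fell at P14, and 9 rose and 1 fell at P29. Of all 14989 genes, 809 rose and 578 fell at P14 in that fit, and 1628 and 1277 at P29. Col1a1 and Col1a2 are in this list and among the fibroblast markers, and Acta2 and Tagln are smooth muscle markers too.

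**Figure D4:**
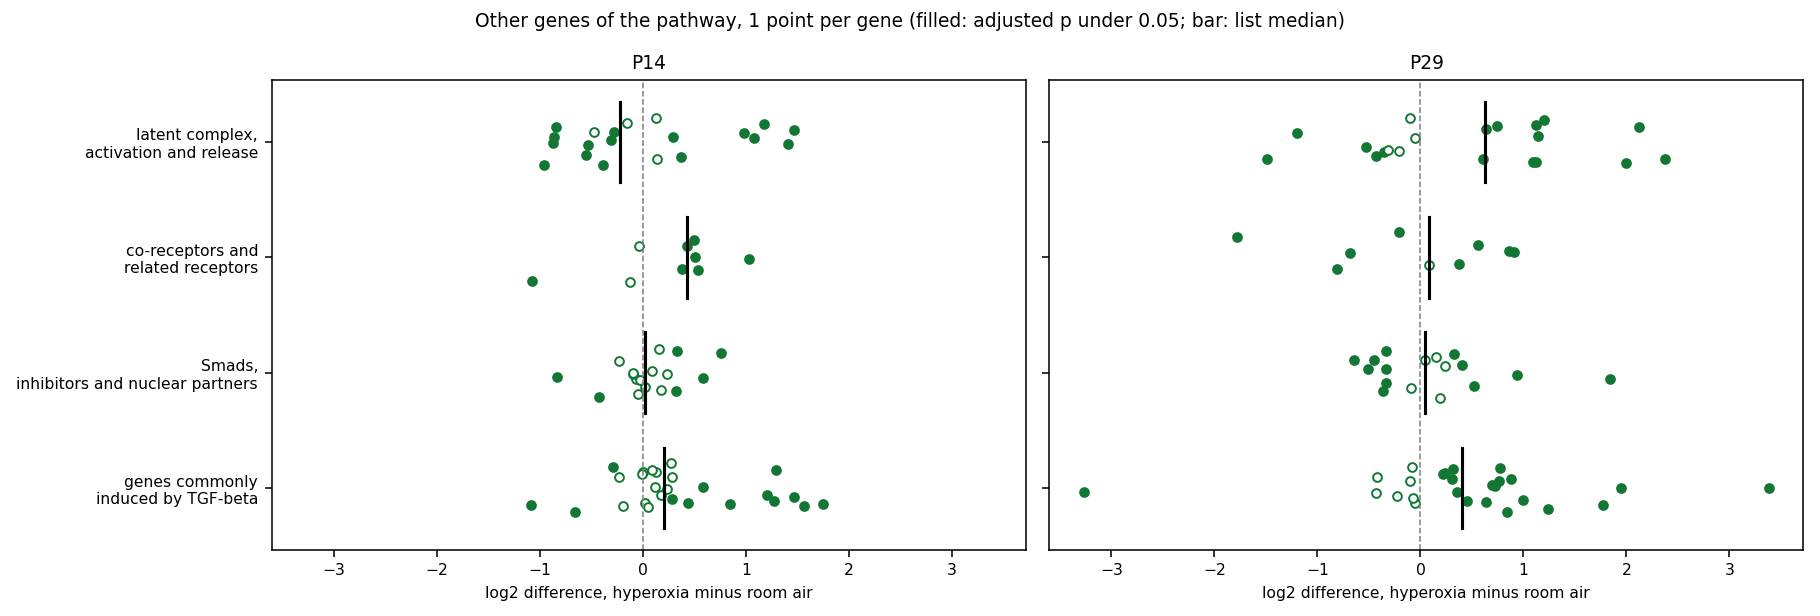
Each point is a pathway gene outside the 10, placed by its log2 difference of hyperoxia minus room air at P14 (left) or P29 (right) and filled where its adjusted p was under 0.05; vertical bars are the list medians, and vertical scatter within a list has no meaning. At P29 the bar of the latent complex list lies at 0.62 and that of the induced genes at 0.40, with Tnc (3.38) and Igfbp3 (-3.27) at the extremes.

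The genes most like the 3 members of widest range are given as a description, by Pearson's r over the 10 arrays, which share 4 groups. For Tgfb2 they were Gpsm2 (r = 0.9923), Cenpf (0.9922) and Kif20a (0.9913), which encode a spindle-orientation protein, a kinetochore protein and a mitotic kinesin. Those of Ltbp2 were Tk1 (0.9943), the thymidine kinase of dividing cells, Rbmxl1 (0.9896) and Tfdp1 (0.9891), the partner of E2F factors. In group means Cenpf went from 8.05 in P14 room air and 8.61 in P14 hyperoxia to 5.41 in P29 room air and 7.82 in P29 hyperoxia, the same order of groups as for Tgfb2. Tgfbi had Gypc (0.9938), Islr (0.9910) and 6330403K07Rik (0.9862) nearest to it. Each of these 3 was highest in P14 room air and lowest in P29 room air.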

How the data were processed

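Lung RNA of 10 samples was measured on Affymetrix arrays of 45101 probe sets. The values used were the log2 expression values the authors deposited. The submitters' processing notes name Partek 6.4 and GCRMA; the settings were not given in the sources used here. Groups and replicate numbers came from the sample titles.

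Names came from the platform's annotation of probe sets: 34958 had 1 symbol, 932 several and 9211 none, and only those with 1 were used. The probe set of highest mean stood for a gene, and a gene was kept where 2 or more arrays read at least 5 (log2). A group-means model of the 10 arrays was fitted in R 4.3.3 by limma 3.58.1, using lmFit and plain eBayes (residual degrees of freedom 6, prior 5.09), and 5 contrasts were tested, two-sided. Benjamini-Hochberg adjustment ran over 14989 genes (over 34958 for single probe sets), with a threshold of 0.05. Errors are SE of the contrast. The procedure was tested on simulated data. Values near the floor are less certain, and the number of arrays limits precision.

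The genes, pathway lists and markers were chosen with earlier results of these data known. Up to 3 genes of each list were named per hyperoxia comparison, by smallest p among those called, and Meox2, Dpt and Pdgfra were named after their values were seen. Alternatives were 2 other filters, other uses of the probe sets, a trended robust fit, array weights, a replicate block, 2 scalings, a fit limited to the groups compared, terms for the actin difference and Y-linked level, and leaving out each array. Promoter sequences are from RefSeq (GRCm38.p6), and positions of probes are left out, no array build being named.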

Additional observations from a re-analysis of the deposited data

Results flagged for a closer look

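In 5 of the 10 genes the hyperoxia effect at P29 differed from that at P14 by limma's test of the difference itself (adjusted over all genes tested). The same test called 11.0% of all genes higher and 11.6% lower. The P29 effect was the higher for Ltbp2 by 1.62 on the log2 scale (adjusted p = 0.000164), for Tgfb2 by 1.47 (adjusted p = 0.000347) and for Tgfbi by 1.25 (adjusted p = 0.00520). For Smad7 the difference was -0.65 (adjusted p = 0.00284) and for Tgfbr3 -0.53 (adjusted p = 0.0314), a call lost when any of 5 arrays was left out (adjusted p = 0.0532 to 0.130). Both P29 room-air arrays held the lowest Ltbp2 and Tgfb2 levels of the 10 arrays. The Smad7 difference was -0.04 on its second probe set (adjusted p = 0.945). No group held the 4 arrays that a check for a stray array needs.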

How the results depend on the processing

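Of the 10 genes 6 were called at P14 and 6 at P29, and 5 in the test between ages. Over every tested gene, upward and downward calls made up 32.3% and 22.8% for P14, then 34.2% and 25.5% for P29. For the test between ages these shares were 11.0% and 11.6%. Fitting the actin difference as well left 2 at P14 and 3 at P29, with fewer degrees of freedom and wider errors, and with the mean of all probe sets the difference had 3. The actin fit called 809 of 14989 genes up and 578 down for P14, and 1628 and 1277 for P29. Leaving out each array in turn gave 3 to 7 calls at P14, and the 3 came without P14 room air replicate 1 and without P14 hyperoxia replicate 1. At P29 the range was 6 to 7. The other counts stayed within 1.5 times. The Tgfbi value at P29 ran from -0.35 to 0.48 over the arrays left out.

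With the mean of all probe sets Tgfbr2 gave -0.56 at P14 and -0.49 at P29, Smad7 0.0525 at P29, and Tgfbr1 -0.89 and -0.62. Its 2 other probe sets, which enter that mean, were under the floor of 5 on all 6 hyperoxia arrays and give no usable size; they read -1.58 and -1.28 at P14, -1.0 and -0.93 at P29 and 0.0723 for age in hyperoxia. Tgfbr2 gave -1.62 and -1.55, and Smad7 0.49 at P29 and -0.11 for age in room air. With the actin term 1 of the 2 other Tgfbr1 probe sets read 0.19 at P29. The cause of the other reversals was not tested. The replicate block left 6 calls at each age, with Tgfb2 called at P14 (0.41, adjusted p = 0.0262) and Smad7 not (0.25, adjusted p = 0.0504). Deviations of same-numbered arrays of an age correlated at 0.11 and 0.01 at P14 and -0.09 and -0.07 at P29. With 2 room-air arrays in a group, these values cannot show whether the numbers pair the arrays. Scaling to the 75th percentile moved the median of all genes to -0.14 at P14 and -0.13 at P29, and the share of calls that were higher from 58.6% to 35.4% and from 57.2% to 37.3%. Quantile normalization gave 46.8% and 47.9%. The P29 comparison by the 1 hyperoxia array of matching sex pattern gave the same call for 10 of 10 genes, its lone array assumed to vary like the others. A fit of only the groups compared does not exist for the difference of effects, which uses all groups.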

Other observations

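The integrin subunits and core Smads below were named after their values were seen, as whole groups from the pathway lists. Integrins that contain the alpha v chain release TGF-beta from its latent complex, and of their measured subunits Itgb6 and Itgb8 rose in hyperoxia at both ages. Itgb8 was at 5.85 and 6.62 in P14 room air, 7.17, 7.29 and 7.21 in P14 hyperoxia, 4.43 and 4.54 in P29 room air and 7.06, 6.89 and 6.62 in P29 hyperoxia. It rose by 0.99 ± 0.19 (SE) at P14 (limma adjusted p = 0.00117) and by 2.37 ± 0.19 at P29 (adjusted p = 2.44e-06), and the effects differed by 1.39 ± 0.26 (adjusted p = 0.00361). The groups did not overlap at either age. Both P29 room-air values of Itgb8 were under the filter's floor of 5, so its P29 rise and the difference between ages have no firm size. Itgb6, the subunit of injured epithelium, was at 7.51 and 7.86 in P14 room air, 8.57 to 9.60 in P14 hyperoxia, 7.34 and 7.35 in P29 room air and 9.13 to 9.83 in P29 hyperoxia. It rose by 1.41 ± 0.26 and 2.13 ± 0.26, and its second probe set gave 0.16 at P14 and 0.76 at P29. With the actin term Itgb6 gave 2.63 and 3.27, and Itgb8 gave 0.78 at P14 (adjusted p = 0.263) and 2.18 at P29 (adjusted p = 0.00879). Itgb5 fell by 0.55 and 0.44 on its leading probe set, and of its 3 others 1 gave 0.28 and 0.36. Itgav, the alpha v chain itself, rose by 1.09 at P29 on its leading probe set, but of its 4 others 2 fell there, by 1.03 and 0.52. Itgb1 and Itgb3 also had probe sets of opposite sign.

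The signal-carrying Smads were not called on their leading probe sets. Smad2 differed by -0.05 at P14 and 0.15 at P29, Smad3 by 0.15 and 0.19 and Smad4 by -0.10 and 0.05. A second Smad2 probe set rose by 0.57 at P14 (adjusted p = 0.000321) and gave 0.09 at P29. The 2 other probe sets of Smad3 fell at both ages, by 0.69 and 0.85 at P14 and by 0.67 and 0.90 at P29. The collagen genes Col1a1, Col1a2 and Col3a1 differed by 0.00, 0.02 and 0.13 at P14 and rose by 0.70, 0.76 and 0.77 at P29 on their leading probe sets. A dimmer probe set of each rose more at P29, by 2.99, 2.22 and 2.15, and that of Col1a1 also rose at P14, by 0.78 (adjusted p = 0.00459). The remaining Col1a2 probe set gave -0.56 at P14 and 0.71 at P29. In the fit with the actin term Col1a1 gave 0.41 at P29 and was not called (adjusted p = 0.201). Fibronectin, Fn1, rose by 0.88 at P29 and by 1.85 on its second probe set.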
